A study of Homo sapiens with 8 samples.

Results

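Proteasome subunit genes were taken as all protein-coding genes with symbols made of PSMA, PSMB, PSMC or PSMD and a number, leaving out the interferon-inducible catalytic subunits PSMB8, PSMB9 and PSMB10. This rule gave 36 of the 78932 gene identifiers in the tables. Of these, 14 encode the core particle, 17 the regulatory particle and 3 chaperones that assemble the base of the regulatory particle, and 2 encode forms of core subunits restricted to single tissues. Their RNA was measured by 3′ end sequencing of poly(A) transcripts from HCT116, an established line from a human colorectal cancer, in which NUDT21 carries the degradation tag dTAG. The DMSO group comprised 4 libraries of DMSO with JTE-607, and the dTAGV1 group 4 libraries of dTAGV1 with JTE-607. Every library thus came from tagged cells exposed to JTE-607, an inhibitor of CPSF73, the endonuclease that cuts nascent transcripts before polyadenylation. Doses, exposure times and the number of clones are not given in the sources used here.

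The proteasome is the large protease that degrades ubiquitin-tagged proteins in the cytoplasm and the nucleus. Its barrel-shaped core holds the proteolytic sites inside a pair of beta rings, closed at either end by alpha rings. The regulatory particle caps the barrel: its base unfolds substrates with a ring of ATPases, and its lid removes the ubiquitin chain. dTAGV1 acts through this same pathway, since it brings tagged proteins to the ubiquitin ligase VHL, and NUDT21 is the smaller component of cleavage factor Im, a complex that binds RNA upstream of poly(A) sites.

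Libraries held 3447842 to 4291256 reads counted to genes on the sense strand. NUDT21, the tagged gene, was at 28.4, 33.5, 35.0 and 31.9 CPM (counts per 1000000 counted reads, after scaling) in DMSO replicates 1 to 4, and at 9.64, 8.76, 4.42 and 10.2 CPM in dTAGV1 replicates 1 to 4. The groups did not overlap, and NUDT21 RNA fell by 1.95 on the log2 scale (standard error, SE, 0.18) (edgeR quasi-likelihood F test, with p adjusted by Benjamini-Hochberg to 1.36e-09). The NUDT21 protein, on which dTAGV1 acts, was not measured here, and the cause of the lower RNA was not tested. Of 8 epithelial markers, 6 passed the filter on low counts, among them EPCAM at 273 CPM and KRT19 at 786 CPM with DMSO, while VIL1 and LGALS4 were near 0. Of 6 markers of immune, endothelial and stromal cells, only COL1A1 passed, at 17.3 CPM with DMSO. The labels do not say that replicates came from separate cultures, so p-values measure the spread between these libraries, which may be technical.

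Of the 33 members that passed the filter on low counts, 13 fell, 1 rose and 19 did not pass the test (edgeR quasi-likelihood F test, threshold 0.05 after Benjamini-Hochberg adjustment). Among all 12618 genes tested, 57.9% were called, with 29.4% higher and 28.5% lower. The members' shares were 42.4% called, 3.03% higher and 39.4% lower. The CPM ranges of the groups were separate for the 14 members called, 42.4% of those tested, and for 50.9% of all genes tested. The share of members called or without overlap was thus below that of all genes. The median log2 fold change was -0.20 over the members and 0.01 over all genes tested. Changes were small: the median absolute log2 fold change was 0.22 for the members and 0.42 for all genes tested. Changes of more than 2-fold were found for 0 of 33 members and for 2095 of 12618 genes tested. In bulk RNA, fewer cells that express a gene and less of its RNA per cell cannot be told apart. In counts of 3′ ends, a change in the amount of RNA also cannot be told apart from a change in the poly(A) sites used.

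**Figure D1:**
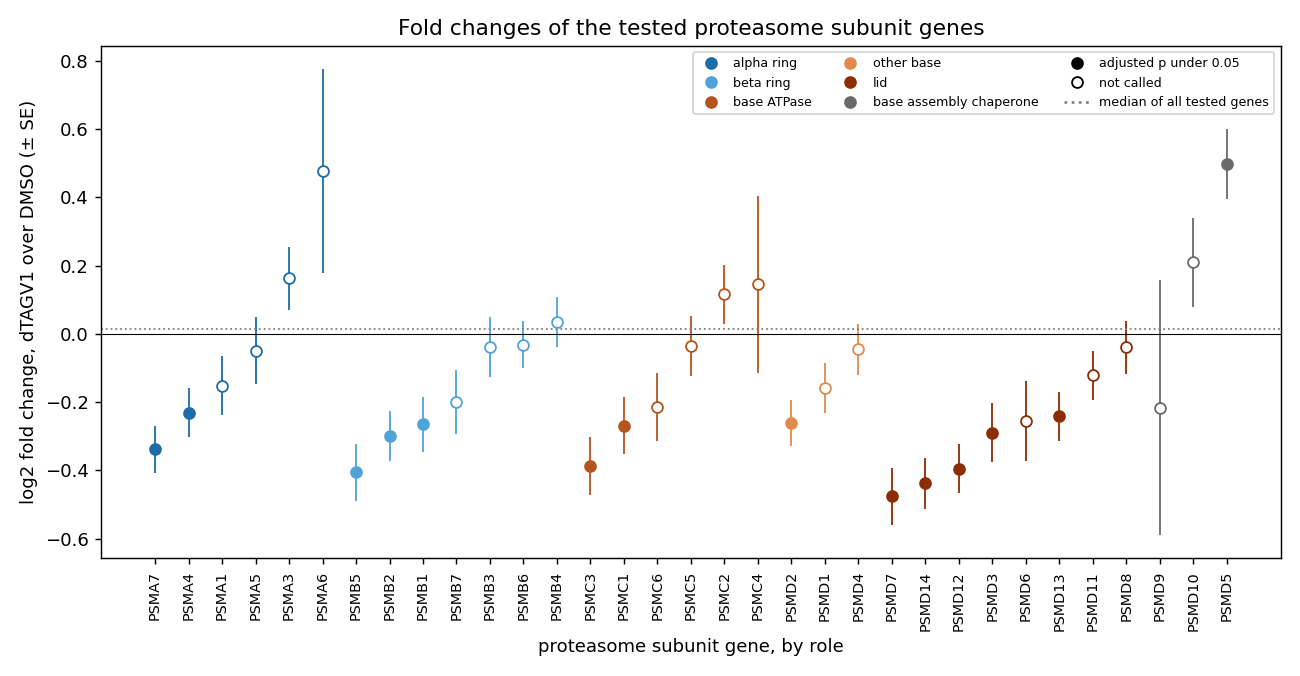
Log2 fold change of dTAGV1 over DMSO (vertical axis, ± SE, 4 libraries in each group) for the 33 tested members, ordered by role; filled points passed the test at an adjusted p under 0.05 and open points did not. Points of the lid all lie below 0, and PSMD5 is the only filled point above 0.

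Proteasome genes are known as targets of NRF1 (encoded by NFE2L1), which binds antioxidant response elements in their promoters when proteasome activity falls. To show these promoters, a table of RefSeq promoter windows on GRCh38.p14 was used, from 250 bases before to 50 after each start. This table was searched on both strands for TGANNNNGC, a loose form of the element core. It held 31 of the 36 members. The motif was present in at least 1 window of 21 members (67.7%), in 47.1% of the 27305 genes of the table and in 51.1% of those among the tested genes. It was held by 8 of 10 core genes in the table (80%) and by 9 of 16 regulatory genes (56.2%). A stricter form contained in it, TGACNNNGC, was searched after these data had been seen. It was present in 9 members (29%), in 16.1% of all genes and in 19.7% of tested genes. For this form the order of the particles was the other way, with 2 of 10 core genes (20%) and 5 of 16 regulatory genes (31.2%). The windows below show the stricter matches that lie upstream of the start, for members above 10 CPM, to let the sequences be read beside the values of these genes. Each is printed 5′ to 3′ on the strand of its gene with the match in capitals, and on the opposite strand a match reads GCNNNGTCA.
PSMA4: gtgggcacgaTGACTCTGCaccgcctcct
PSMD3: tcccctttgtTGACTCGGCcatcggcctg
PSMD12: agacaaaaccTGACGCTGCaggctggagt
PSMB3: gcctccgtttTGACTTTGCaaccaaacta
PSMC5: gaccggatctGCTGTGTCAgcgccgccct
PSMD5: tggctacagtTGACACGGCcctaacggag
They lie at chr15:78540650-78540678 on the plus strand for PSMA4, chr17:39980760-39980788 on the plus strand for PSMD3 and chr17:67366724-67366752 on the minus strand for PSMD12. The others lie at chr17:38752627-38752655 on the plus strand for PSMB3, chr17:63827654-63827682 on the plus strand for PSMC5 and chr9:120843038-120843066 on the minus strand for PSMD5. Of these 6 genes, PSMA4, PSMD3 and PSMD12 fell, PSMD5 rose, and PSMB3 and PSMC5 did not pass the test. In the annotation GENCODE 29, the windows of PSMA4 and PSMC5 lie within the bounds of the gene, downstream of its annotated start. A match describes the sequence only.

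The alpha ring forms the gate through which substrates enter the core. Of its 7 genes, 6 were tested, 2 fell (33.3%, against 28.5% of all tested genes) and 4 did not pass the test. PSMA7 (ENSG00000101182; GRCh38 chromosome 20, 62136735 to 62143440, minus strand) had the lowest fold change. It was at 695, 814, 816 and 807 CPM in DMSO replicates 1 to 4, and at 581, 618, 634 and 643 CPM in dTAGV1 replicates 1 to 4. The first DMSO library was the lowest of its group and still above every dTAGV1 library. PSMA7 fell by 20.9%, a log2 fold change of -0.34 with an SE of 0.07 (edgeR, Benjamini-Hochberg adjusted p = 0.000171). PSMA4 fell from 314 ± 16.1 to 267 ± 17.7 CPM (mean ± SD, n = 4), a log2 fold change of -0.23 with an SE of 0.07 (edgeR, Benjamini-Hochberg adjusted p = 0.00724). PSMA1, PSMA3 and PSMA5 had log2 fold changes of -0.15, 0.16 and -0.05, and their groups overlapped. PSMA3 was at 104 to 111 CPM in all libraries but dTAGV1 replicates 3 and 4, which held 119 and 146 CPM.

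PSMA6 had the highest log2 fold change of the alpha ring, 0.48, with an SE of 0.30 (edgeR, Benjamini-Hochberg adjusted p = 0.176). Its values rested on 16, 30, 10 and 17 counts in DMSO replicates 1 to 4 and 14, 30, 20 and 30 counts in dTAGV1 replicates 1 to 4, so the groups overlapped. PSMA2, the member of the ring left out by the filter, had 3 to 11 counts with DMSO and 7 to 12 with dTAGV1. Both genes share exons on the same strand with another gene of GENCODE 29, AL121594.1 for PSMA6 and AC010132.3 for PSMA2, and where the authors' annotation holds the same overlap, reads in shared exons are given to neither gene. PSMA1 also shares exons on its strand, with AC018523.2, and stood at 96.9 CPM with DMSO. Both also have named pseudogenes in that annotation, 4 for PSMA6 and 3 for PSMA2. Their counts are therefore uncertain as measures of the RNA of these subunits.

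The beta ring carries the proteolytic sites, and its 7 genes were all tested. Of these, 3 fell (42.9%, against 28.5% of all tested genes) and 4 did not pass the test. The 3 catalytic subunits differed in outcome. PSMB5 (ENSG00000100804; chromosome 14, 23016543 to 23035230, minus strand), which has the chymotrypsin-like activity and is the main target of bortezomib, was at 175, 179, 185 and 177 CPM with DMSO and at 109, 149, 139 and 143 CPM with dTAGV1. All dTAGV1 libraries lay below all DMSO libraries, and replicate 1 was the lowest. PSMB5 fell by 24.5%, a log2 fold change of -0.41 with an SE of 0.08 (edgeR, Benjamini-Hochberg adjusted p = 0.000201).

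PSMB6 (ENSG00000142507; chromosome 17, 4796144 to 4798503, plus strand), with the caspase-like activity, was at 277, 282, 280 and 268 CPM with DMSO and at 260, 288, 275 and 260 CPM with dTAGV1. The groups overlapped, and the log2 fold change was -0.03 with an SE of 0.07 (edgeR, Benjamini-Hochberg adjusted p = 0.71). PSMB7 (ENSG00000136930; chromosome 9, 124353466 to 124415444, minus strand), with the trypsin-like activity, was at 186, 203, 218 and 210 CPM with DMSO and at 150, 155, 202 and 203 CPM with dTAGV1. Its dTAGV1 libraries 1 and 2 lay below every DMSO library, and libraries 3 and 4 lay within the DMSO range. The log2 fold change of PSMB7 was -0.20 with an SE of 0.09 (edgeR, Benjamini-Hochberg adjusted p = 0.0725). The share of reads given to no gene was 62.8% in dTAGV1 libraries 1 and 2, and 59.0% and 56.7% in libraries 3 and 4. Its part in the values of PSMB7 was not tested. PSMB7 passed the test in 7 of 17 alternatives, among them the fit without dTAGV1 replicate 4, at a log2 fold change of -0.29 (edgeR, Benjamini-Hochberg adjusted p = 0.00942), and its adjusted p ranged from 0.00942 to 0.211 over the alternatives.

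Of the beta subunits without a proteolytic site, PSMB1 and PSMB2 fell. PSMB1 went from 206 ± 7.60 to 171 ± 19.9 CPM and PSMB2 from 209 ± 7.74 to 170 ± 9.80 CPM (mean ± SD, n = 4). Their log2 fold changes were -0.27 with an SE of 0.08 for PSMB1 and -0.30 with an SE of 0.07 for PSMB2 (edgeR, Benjamini-Hochberg adjusted p = 0.00646 and 0.000927). PSMB3 and PSMB4 had log2 fold changes of -0.04 and 0.03. PSMB4, the highest of the ring, was at 294, 311, 314 and 317 CPM with DMSO and 288, 350, 299 and 328 CPM with dTAGV1, and the groups overlapped. Its log2 fold change had an SE of 0.07 (edgeR, Benjamini-Hochberg adjusted p = 0.705), and its sign changed when libraries were scaled by total counts alone, to -0.0405.

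The base of the regulatory particle is built on a ring of 6 ATPases, PSMC1 to PSMC6, which thread the unfolded substrate into the core. All 6 were tested, 2 fell (33.3%, against 28.5% of all tested genes) and 4 did not pass the test. PSMC3 (ENSG00000165916; chromosome 11, 47418769 to 47426473, minus strand) was at 113, 128, 126 and 119 CPM with DMSO and at 89.0, 81.9, 103 and 97.4 CPM with dTAGV1. The groups did not overlap, and PSMC3 fell by 23.6%, a log2 fold change of -0.39 with an SE of 0.09 (edgeR, Benjamini-Hochberg adjusted p = 0.000383). PSMC1 fell from 736 ± 31.8 to 611 ± 87.7 CPM (mean ± SD, n = 4). Its dTAGV1 libraries stood at 689, 603, 661 and 491 CPM, a wider spread than the 705 to 775 CPM of the DMSO libraries. The log2 fold change of PSMC1 was -0.27 with an SE of 0.08 (edgeR, Benjamini-Hochberg adjusted p = 0.00779), and it was -0.19 without dTAGV1 replicate 4, the library with the lowest value. PSMC1 has 13 named pseudogenes in GENCODE 29, more than any other member, and reads that fit several loci are not counted to it.

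PSMC2, PSMC5 and PSMC6 had log2 fold changes of 0.12, -0.04 and -0.21 and overlapping groups. PSMC4 (ENSG00000013275; chromosome 19, 39971005 to 39981441, plus strand) had the highest of the ATPases, 0.15 with an SE of 0.26 (edgeR, Benjamini-Hochberg adjusted p = 0.652). It had only 14, 35, 33 and 26 counts with DMSO and 21, 19, 32 and 39 counts with dTAGV1, with overlap between the groups. PSMC4 shares no exon with another gene on its strand in GENCODE 29. The annotation that the authors counted with is not given in the sources used here.

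The other genes of the base are the scaffold subunits PSMD1 and PSMD2 and the ubiquitin receptor PSMD4. Of these 3, PSMD2 fell (33.3%, against 28.5% of all tested genes). PSMD2 (ENSG00000175166; chromosome 3, 184298709 to 184309054, plus strand), which docks the shuttles that deliver ubiquitinated proteins, was at 453, 484, 480 and 467 CPM with DMSO and at 420, 402, 394 and 356 CPM with dTAGV1. The groups did not overlap, and PSMD2 fell by 16.6%, a log2 fold change of -0.26 with an SE of 0.07 (edgeR, Benjamini-Hochberg adjusted p = 0.00207). PSMD4 (ENSG00000159352; chromosome 1, 151254703 to 151267479, plus strand) was at 236, 240, 276 and 246 CPM with DMSO and at 255, 239, 255 and 219 CPM with dTAGV1. These values overlapped, at a log2 fold change of -0.05 with an SE of 0.07 (edgeR, Benjamini-Hochberg adjusted p = 0.625). PSMD1 had a log2 fold change of -0.16 with an SE of 0.07 (edgeR, Benjamini-Hochberg adjusted p = 0.0646). It passed the test in 5 of 17 alternatives.

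The lid is the largest group of members by role, with 8 genes. Of these, 5 fell (62.5%, against 28.5% of all tested genes) and 3 did not pass the test. All 8 log2 fold changes were below 0, with a median of -0.27, and no test of the lid against the other roles was made. PSMD14 and PSMD7 form the enzyme pair at its centre, in which PSMD14 is the metalloprotease that cuts the ubiquitin chain from the substrate and PSMD7 its inactive partner. PSMD14 (ENSG00000115233; chromosome 2, 161308038 to 161411717, plus strand) was at 254, 290, 291 and 291 CPM with DMSO and at 211, 230, 194 and 197 CPM with dTAGV1. PSMD7 (ENSG00000103035; chromosome 16, 74296775 to 74306288, plus strand) was at 130, 138, 125 and 141 CPM with DMSO and at 87.6, 90.6, 109 and 97.0 CPM with dTAGV1. Neither gene had overlapping groups, and these 2 genes had the lowest fold changes among all tested members. PSMD7 fell by 28.1%, a log2 fold change of -0.48 with an SE of 0.08, and PSMD14 fell by 26.2%, a log2 fold change of -0.44 with an SE of 0.08 (edgeR, Benjamini-Hochberg adjusted p = 2.93e-05 and 2.03e-05).

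PSMD12, PSMD3 and PSMD13, structural subunits of the lid, also fell. PSMD12 went from 210 ± 10.7 to 160 ± 7.46 CPM (mean ± SD, n = 4), a log2 fold change of -0.40 with an SE of 0.07 (edgeR, Benjamini-Hochberg adjusted p = 4.83e-05). PSMD13 had a log2 fold change of -0.24 with an SE of 0.07 (edgeR, Benjamini-Hochberg adjusted p = 0.00564), and its dTAGV1 libraries spanned only 144 to 146 CPM. PSMD3 had a log2 fold change of -0.29 with an SE of 0.09 (edgeR, Benjamini-Hochberg adjusted p = 0.00586), and its dTAGV1 libraries split into 282 and 290 CPM in replicates 1 and 2 and 228 and 219 CPM in replicates 3 and 4. This order of libraries was opposite to that of PSMB7. PSMD6, PSMD11 and PSMD8 had log2 fold changes of -0.26, -0.12 and -0.04 with overlapping groups. PSMD8, the highest of the lid, was at 160, 155, 151 and 157 CPM with DMSO and at 156, 164, 155 and 132 CPM with dTAGV1 (SE of 0.08; edgeR, Benjamini-Hochberg adjusted p = 0.679). For PSMD6 the sign depended on the counts used: with counts irrespective of strand its log2 fold change was 0.0181.

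PSMD5, PSMD9 and PSMD10 carry subunit symbols, yet their products are chaperones that hold parts of the base during assembly and are absent from the finished particle. PSMD5 (ENSG00000095261; chromosome 9, 120815496 to 120842984, minus strand) was the only member that rose. It was at 43.5, 42.5, 41.4 and 46.0 CPM with DMSO and at 69.7, 57.1, 54.2 and 63.2 CPM with dTAGV1. All dTAGV1 libraries lay above all DMSO libraries. The increase was 41.1%, a log2 fold change of 0.50 with an SE of 0.10 (edgeR, Benjamini-Hochberg adjusted p = 0.000198). PSMD10, also called gankyrin, had a log2 fold change of 0.21 with overlapping groups. PSMD9 was the lowest of the 3, at -0.22 with an SE of 0.37 (edgeR, Benjamini-Hochberg adjusted p = 0.64), and it had 19, 12, 14 and 13 counts with DMSO and 10, 22, 6 and 8 counts with dTAGV1. PSMD9 shares exons on the same strand with AC069503.2 and WDR66 in GENCODE 29.

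**Figure D2:**
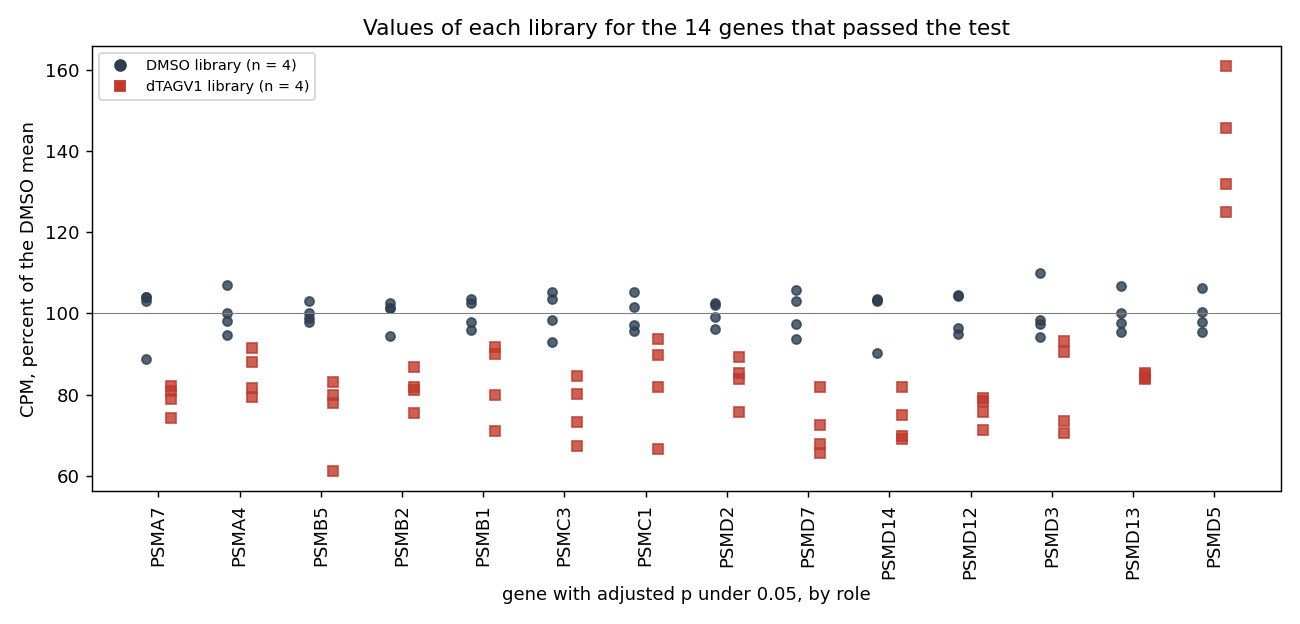
CPM of each library as a percent of the DMSO mean (vertical axis) for the 14 members that passed the test; circles are the 4 DMSO libraries and squares the 4 dTAGV1 libraries. Squares lie below all circles for 13 genes and above all circles for PSMD5.

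The tissue-restricted core forms were not expressed at a level that could be tested. PSMA8, the alpha subunit of the testis, had 0 counts in all 8 libraries. PSMB11, the catalytic subunit of the thymus, had 2 counts in DMSO replicate 3 and 0 in the other libraries.

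Core and regulatory particle were then set side by side. Summed over its 14 genes, the core was at 2701, 2917, 2910 and 2890 CPM in DMSO replicates 1 to 4 and at 2294, 2532, 2560 and 2618 CPM in dTAGV1 replicates 1 to 4. Summed over its 17 genes, the regulatory particle was at 3651, 3883, 3907 and 3837 CPM with DMSO and at 3335, 3267, 3347 and 3081 CPM with dTAGV1. Neither sum overlapped between the groups, and their means were lower with dTAGV1, by -12.4% for the core and by -14.7% for the regulatory particle. These sums are given as a description, without a test, and genes with many reads weigh most in them. The size of the change depends on the scaling of the libraries. Without TMM scaling, core and regulatory genes together held 0.680% of counts with DMSO and 0.557% with dTAGV1, a change of -18.1%.

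The ratio of core to regulatory counts within a library does not depend on how libraries are scaled. It was 0.740, 0.751, 0.745 and 0.753 with DMSO, and 0.688, 0.775, 0.765 and 0.850 with dTAGV1. The dTAGV1 libraries thus lay on both sides of the DMSO range. The SD of the ratio was 0.00614 with DMSO and 0.0662 with dTAGV1. On the log2 scale the group means differed by 0.04, which is less than the SD of 0.12 among dTAGV1 libraries. The difference was -0.01 without dTAGV1 replicate 4 and 0.09 without dTAGV1 replicate 1. A further measure gave each gene equal weight, so that PSMA2, PSMA6 and PSMC4 with their few counts weighed as much as the others. In it, the mean log2 count of core genes minus that of regulatory genes was -0.53 ± 0.10 with DMSO and -0.40 ± 0.09 with dTAGV1 (mean ± SD, n = 4). This difference of 0.13 was slightly above the SD of either group, and the groups overlapped. Gene by gene, 5 of 13 tested core genes fell (38.5%) with a median log2 fold change of -0.15. Of 17 regulatory genes, 8 fell (47.1%) with a median of -0.24. Among all tested genes 28.5% fell. The core median was -0.23 without dTAGV1 replicate 4. No direction is therefore given for core against regulatory particle.

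**Figure D3:**
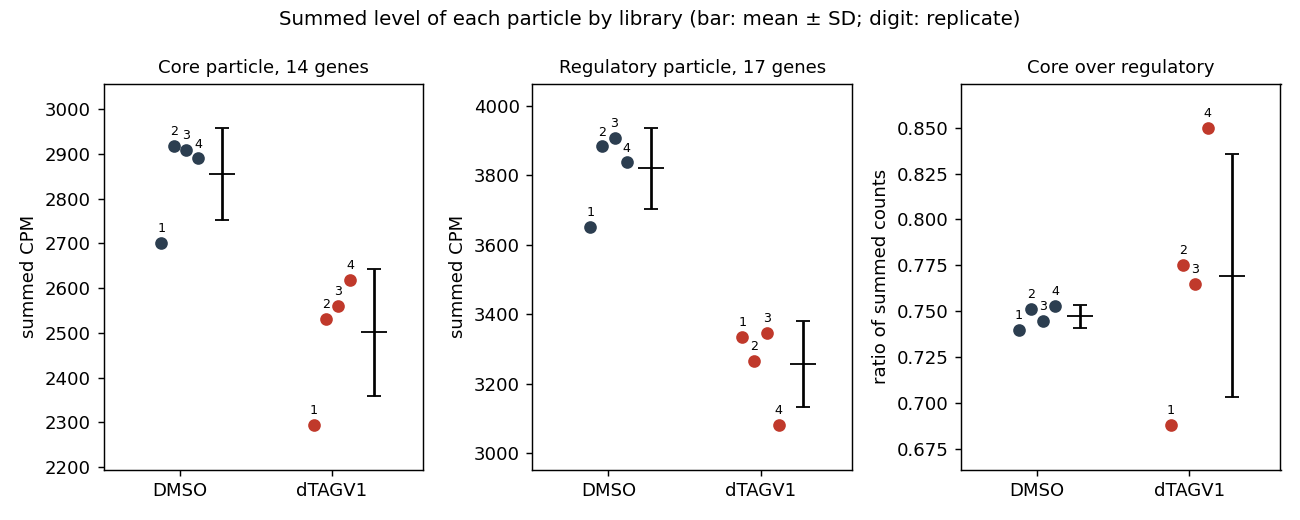
Summed CPM of the core (left) and the regulatory particle (middle), and the ratio of their counts (right), for each library by group; digits give the replicate, and bars the mean ± SD of 4 libraries. Vertical axes do not start at 0. For both sums the dTAGV1 points lie below all DMSO points, while the ratios of dTAGV1 libraries run from 0.688 to 0.850 around the DMSO values.

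The 3′ ends of the members were described from GENCODE 29, because cleavage factor Im and JTE-607 both act at poly(A) sites. The longest annotated 3′ untranslated region had a median of 348 bases over the 33 tested members, from 57 bases for PSMC5 to 3723 bases for PSMB2. Over 10644 tested protein-coding genes the median was 1424.5 bases. Of these 2 genes, PSMB2 fell and PSMC5 did not pass the test. A single annotated 3′ end, merging ends within 100 bases of each other, was found for 16 members (48.5%) and for 41.7% of the tested protein-coding genes. The letters TGTA, bound by cleavage factor Im as UGUA, were present in the last 100 bases of the longest transcript for 20 members (60.6%) and for 56.4% of 10637 tested protein-coding genes. They were present in 6 of 13 members that fell (46.2%) and in 13 of 19 that did not pass the test (68.4%). These shares rest on few genes, and the difference between them was not tested. Members with 0 matches that fell were PSMB2, PSMB5, PSMC3, PSMD2, PSMD7, PSMD12 and PSMD14. Those with 0 matches that did not pass the test were PSMA6, PSMB3, PSMB7, PSMC4, PSMD8 and PSMD9. Members with 2 matches were PSMB1 and PSMD13, which fell, PSMD5, which rose, and PSMA3, PSMA5, PSMC2 and PSMC6, which did not pass the test. PSMD10 had 4 matches and did not pass the test. Use of single poly(A) sites was not measured here.

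Genes that work with the proteasome outside the rule were taken from lists written with earlier results of these data known. Their counts are to be read against the 57.9% of all tested genes that were called, 29.4% higher and 28.5% lower. Of 6 other assembly factors, 4 fell and 1 rose (83.3% called). PSMG1, PSMG3, PSMG4 and POMP, which assemble the core, fell, with log2 fold changes of -0.45, -0.64, -0.53 and -0.40. PAAF1, a chaperone of the base, rose from 7.67 ± 1.26 to 17.1 ± 0.468 CPM (mean ± SD, n = 4), a log2 fold change of 1.16 with an SE of 0.18 (edgeR, Benjamini-Hochberg adjusted p = 5.26e-06). Of 5 activators and inhibitors, 1 fell (20% called): PSME3, an activator of the nuclear proteasome, at a log2 fold change of -0.77. PSME2 was the highest at 0.55 and did not pass the test. Among 10 associated factors, 3 fell and 2 rose (50% called), from UBQLN1, a shuttle for ubiquitinated proteins, at -0.79 to TXNL1, a thioredoxin-like protein of the regulatory particle, at 0.56. The last subunits of the particle, ADRM1 and SEM1, had log2 fold changes of -0.13 and 0.14 and did not pass the test. Of PSMB8, PSMB9 and PSMB10, only PSMB9 was tested, and it did not pass.

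A list of 9 genes held NFE2L1, genes whose products process NRF1, the related NFE2L2 and the partner genes MAFF, MAFG and MAFK. Of these, 3 rose (NFE2L2, MAFK and NGLY1) and 1 fell, or 44.4% called. NFE2L1 itself had a log2 fold change of 0.13 with an SE of 0.08 (edgeR, Benjamini-Hochberg adjusted p = 0.169). NFE2L2, which encodes the related factor NRF2, was the highest and rose from 171 ± 7.15 to 366 ± 24.1 CPM (mean ± SD, n = 4), a log2 fold change of 1.09 with an SE of 0.07 (edgeR, Benjamini-Hochberg adjusted p = 3.57e-12). DDI2, the protease that activates NRF1, was the lowest at -0.37 and fell.

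Complexes of related build were set beside the proteasome as a description. The COP9 signalosome and the translation factor eIF3 share PCI and MPN domains with the lid subunits. Of 10 signalosome genes 3 rose and 1 fell (40% called), from a log2 fold change of -0.33 for COPS3 to 0.86 for COPS4, with a median of 0.13. Of 11 tested eIF3 genes 4 rose and 4 fell (72.7% called), from -0.47 for EIF3K to 0.48 for EIF3F, with a median of 0.06. The share called among all tested genes was 57.9%. The chaperonin, a barrel-shaped folding machine, had 7 of 8 genes that fell (87.5%, against 28.5% of all tested genes), from -0.46 for CCT6A to -0.11 for CCT8, and a median of -0.32. Lower values upon dTAGV1 were therefore also seen in a complex outside the proteasome, and no test of these lists against each other was made.

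**Figure D4:**
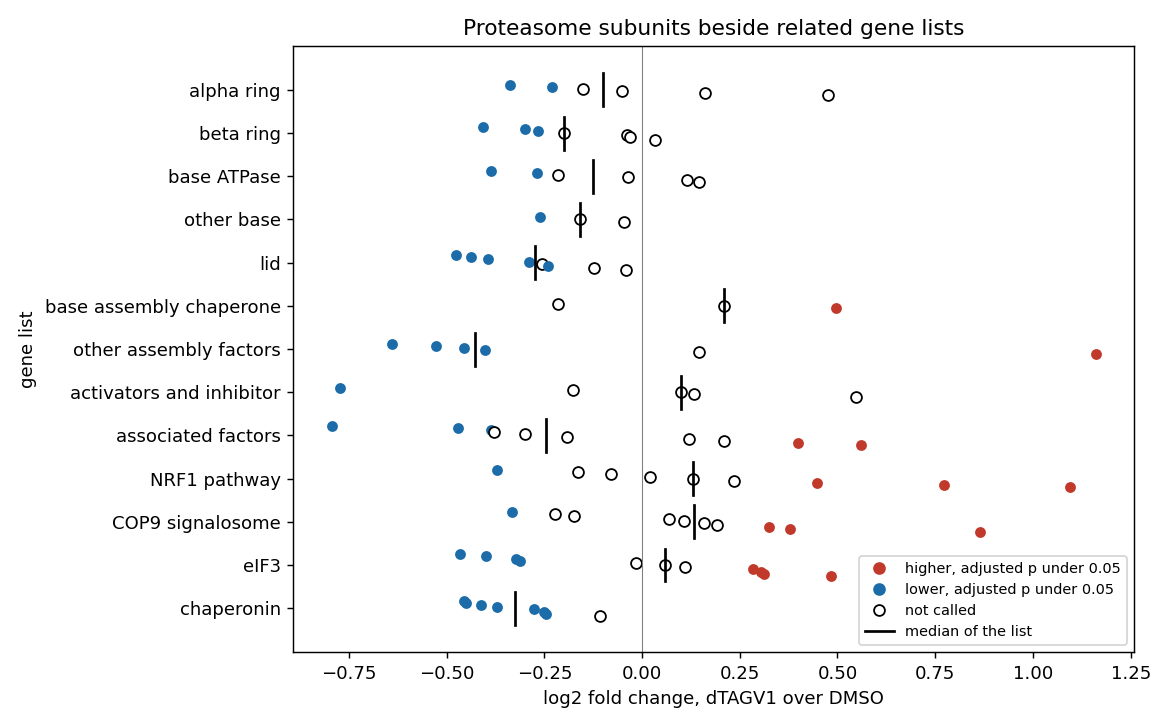
Log2 fold changes of dTAGV1 over DMSO (horizontal axis) for the tested genes of 13 lists; each point is a gene, coloured by its call at an adjusted p under 0.05, and black bars are list medians. Medians of the alpha ring, beta ring, base and lid lie between -0.27 and -0.10, and that of the base assembly chaperones lies above 0.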

How the data were processed

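Libraries were made with the Lexogen 3′ QuantSeq forward kit, per the labels' protocols, so that each transcript gives reads near its 3′ end and no length correction was made. The authors deposited whole-number counts of reads per gene in the layout of STAR. FastQC, fastp, STAR, HTSeq, DESeq2 and GRCh38 are named in the submitters' processing notes, without versions, and the annotation and any removal of PCR copies are not given in the sources used here. Counts on the gene's strand were used. Totals of reads given to no gene (56.7% to 62.8% of reads) stayed out of library sizes and tests. PCR copies may be among the counts, so counting error is a lower limit of the error.

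Genes were filtered with filterByExpr and tested with edgeR 4.0.16 in R 4.3.3 (TMM scaling, robust quasi-likelihood F test, Benjamini-Hochberg adjustment over 12618 genes, threshold 0.05). CPM denotes counts per 1000000 after TMM scaling. SE is the absolute log2 fold change divided by the square root of F. Of 78932 identifiers, 61481 were in the symbol table, and coordinates were taken from GENCODE 29 on GRCh38, counted from 1.

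The members and lists were chosen with earlier results of these data known. Values in every library are given for the highest and lowest member of each role, the catalytic subunits, PSMD14, PSMD4 and NUDT21, and for the pathway and complex lists the highest and lowest tested member is named. A list of ubiquitin genes is not reported here. Other genes, and the stricter promoter motif, were named after their values were seen. Alternatives were DESeq2 1.42.0, limma-voom (limma 3.58.1), RLE or library-size scaling, other filters, counts irrespective of strand, non-robust dispersions, a term for the replicate number and leaving out each library.

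Replicates of a group differed by more than sampling noise (chi-square over degrees of freedom 1.89 to 5.62). On simulated counts for this comparison, with 200 of 12618 genes changed, 90% of genes changed by 1 on the log2 scale were recovered, 14% of those changed by 0.3 and 27.5% of the latter above 50 CPM, with 7 false calls. In the data 7302 genes were called, so the adjustment was less strict and these shares do not carry over. Plots were made in Python 3.11.15 (matplotlib 3.10.9).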

Additional observations from a re-analysis of the deposited data

Results flagged for a closer look

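In 74 groups of 4 values, each group's lowest and highest library was compared with the others, and 4 groups held a library farther from the rest than the critical value of Dixon's test for 4 samples. Chance flags about 1 in 20 groups. All 4 were low values of DMSO replicate 1. PSMA7 was at 695.4 CPM there and at 807.1 to 815.6 CPM in the other DMSO libraries. PSMB2 was at 197.6 CPM against 211.8 to 214.6 CPM, and PSMD14 at 254.1 CPM against 290.1 to 291.4 CPM. The summed core, which contains PSMA7 and PSMB2 and so is not a separate observation, was at 2701 CPM against 2890 to 2917 CPM. Without this library 14 members fell and 1 rose, and PSMB7 was the member added.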

How the results depend on the processing

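All 14 members called kept their call and direction in each of 17 alternatives, and 0 of the 10 sign changes among 668 alternative values concerned a called member or NUDT21. Between 13 and 19 members fell. The 19 came from scaling by total counts, which moved the median of all genes from 0.01 to -0.06. Requiring an average of 100 counts left 4120 genes called, since fewer were tested. Leaving out 1 library at a time gave 6861 to 7232 genes, 13 to 17 members that fell and 1 to 2 that rose. The second was PSMA6 without DMSO replicate 2 and PSMA3 without dTAGV1 replicate 1. Median log2 fold changes ran from -0.228 to -0.121 for the core and from -0.254 to -0.218 for the regulatory particle. Sign changes were those of PSMB4 with library-size scaling (-0.0405), of PSMD6 with counts irrespective of strand (0.0181), and, with 1 library left out, of PSMB4 (-0.0291 to 0.0694), PSMC4 (-0.0494 to 0.273), PSMC5 (-0.102 to 0.00747), PSMD4 (-0.0833 to 0.00143) and PSMD8 (-0.0927 to 0.00736). The cause was not tested. The labels do not say whether equal replicate numbers mark a shared culture. Over all tested genes, deviations from the group means correlated at 0.131, -0.0176, 0.0232 and 0.0340 for numbers 1 to 4. Such values cannot exclude pairing. With a replicate block, 7434 genes were called against 7302 without it, 15 members fell and 1 rose. In simulated counts, 27.5% of genes above 50 CPM that changed by 0.3 on the log2 scale were recovered. Far fewer genes were changed there than were called here, which makes the adjustment stricter, so this share does not carry over to the members. A member that did not pass the test may still differ.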
